A study of Mus musculus with 38 samples.

Results

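The dentate gyrus holds few granule cells that show an Arc reporter in a mouse that has learned nothing new. The 6 libraries described here compare such cells with neighbours in which the reporter was not seen. All mice were adult male C57BL/6J animals of the Arc::dVenus line, which carries a short-lived form of the yellow fluorescent protein Venus behind the promoter of Arc, so that a cell fluoresces while the reporter promoter is or was recently active. In the home cage group (HC) the mice stayed in standard housing and never entered the conditioning chamber. From each of 3 HC mice (numbers 15, 16 and 17) the contents of 10 dVenus+ and of 10 neighbouring dVenus- granule cells were aspirated from acute slices as nucleated patches and pooled, and each pool became 1 Smart-seq2 library. The comparison is therefore dVenus+ against dVenus- within a mouse, with 3 pairs, and its members are the 6 HC libraries of 38 in the series, chosen by the history and reporter state in their titles. The other libraries came from 4 mice placed in the chamber without a shock (no shock, NS) and 12 fear conditioned mice (FC), each again with 1 dVenus+ and 1 dVenus- library, and are used below only beside the HC values. The reporter is a promoter transgene and not the Arc gene itself, and a library is a pool of 10 cells and not 1 cell. By immunostaining, the paper found Arc protein in only a minority of dVenus+ dentate cells of home cage mice. That share was larger in NS and largest in FC mice, so the dVenus+ cells of the 3 histories were not alike in it. Within HC, p-values rest on 3 mice, and in the model fits the spread of each gene is estimated partly from all genes. Tests of differences between histories use all 38 libraries, and tests within NS or FC use their own mice.

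Arc is an immediate early gene: its transcription is switched on by synaptic activity within minutes, and its protein acts at dendritic spines, where it promotes the removal of AMPA receptors. Granule cells of the dentate gyrus fire sparsely, and the few that express Arc after an experience belong to the ensemble that later takes part in recall, which is why the reporter is used to find engram cells. After the immediate early genes, active neurons also switch on a delayed set, among it secreted factors such as Bdnf and the activin subunit Inhba, and the home cage comparison asks which of these differences a recently Arc-active cell carries without any training.

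The libraries held between 5970884 and 9096451 counts on genes, and the dVenus+ library held more genes than the dVenus- library of its mouse in all 3 mice. Genes with at least 1 count numbered 10781, 8062 and 9638 in dVenus+ cells of mice 15, 16 and 17 and 9679, 7037 and 8455 in their dVenus- cells. The difference was 1103 ± 79.0 genes (SD, n = 3 mice), or 1190 ± 53.3 at equal depth, with an exact two-sided sign-flip permutation p of 0.25, the smallest that 3 mice allow. Rn45s, the ribosomal RNA precursor, took 59.4%, 70.0% and 33.2% of the counts in dVenus+ and 6.82%, 53.5% and 8.61% in dVenus- libraries, a difference of 31.2 ± 18.9 percentage points (n = 3, exact permutation p = 0.25). Lars2, a mitochondrial leucyl-tRNA synthetase, followed the same order, at 8.57%, 11.7% and 4.46% against 0.524%, 7.18% and 0.938%. In mouse 16 both libraries were rich in Rn45s, and they were the 2 with the fewest detected genes. These shares move with the dVenus comparison below, and their part in it was not tested.

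**Figure D1:**
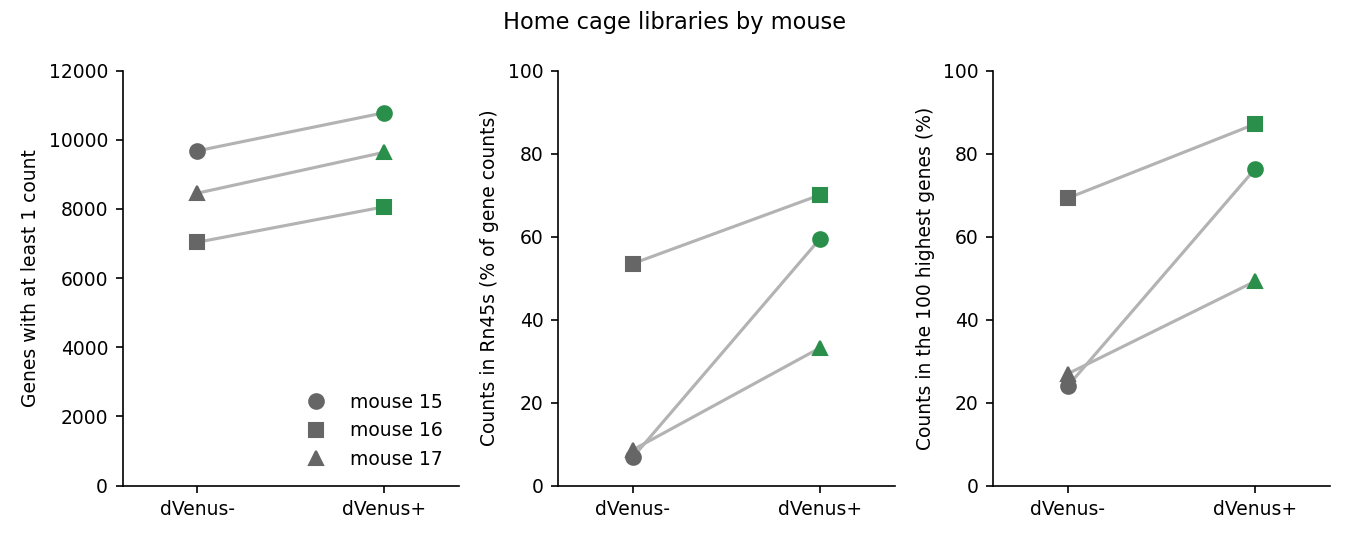
Library measures of the 6 HC libraries, dVenus- on the left and dVenus+ on the right of each panel, with 1 line per mouse: genes with at least 1 count, the percentage of counts in Rn45s, and the percentage of counts in the 100 highest genes of the library. All 3 lines rise in each panel, and among the libraries of each kind that of mouse 16 sits highest in both percentages and lowest in detected genes.

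Arc checked the labels, since its promoter drives the reporter by which the cells were picked, and its difference is no finding. Arc (chr15:74669081-74672570 in mm10) had 1013, 614 and 4579 counts in the dVenus+ libraries of mice 15, 16 and 17 and 0, 1 and 51 in the dVenus- libraries. On the scale of normalised CPM (nCPM, scaled by the trimmed mean of M-values, TMM) these were 217, 211 and 490 against 0, 0.167 and 4.44, a mean of 306 ± 159 against 1.53 ± 2.51 (SD, n = 3). The groups were far apart in every mouse, and the 6 titles fitted the Arc counts. The log2 fold change was 8.33 (SE 1.61), with an unadjusted p of 0.00018 and an adjusted p of 0.455 by edgeR, so that even Arc was not called over the whole table. DESeq2 gave Arc a log2 fold change of 9.99 and an adjusted p of 7.5e-05.

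No gene was called in HC by edgeR's quasi-likelihood test with the mouse as a block, at an adjusted p under 0.05 and an absolute log2 fold change over 1: 0 of 7588 genes tested (0.0%). Before adjustment, 532 genes (7.01%) had a p under 0.05, 288 (3.8%) higher and 244 (3.22%) lower in dVenus+ cells, and the smallest adjusted p, shared by Rn45s, Lars2 and Arc, was 0.455. DESeq2 called 625 genes (8.24%) on the same counts and design, 351 higher and 274 lower, and in 298 of these the dVenus+ and dVenus- libraries did not overlap. With 3 pairs, 2 residual degrees of freedom remained, and the common biological coefficient of variation was 1.42 in HC, 1.42 in NS and 1.20 in FC. The number of genes with an unadjusted p under 0.05 fell to 161 without mouse 15, 285 without mouse 16 and 471 without mouse 17.

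A larger set was ordered the same way in all libraries without a test. With 3 libraries of each kind some genes are so ordered by arrangement alone, and their share was not estimated. In 1157 genes (15.2%) all 3 dVenus+ libraries lay on the same side of all 3 dVenus- libraries, above them in 646 (8.51%) and below them in 511 (6.73%), and in 2281 genes (30.1%) the sign was the same in the 3 mice. The pools were sparse: of the 10635 genes with at least 10 counts in any dVenus+ library, 36.4% reached that count in all 3 and 35.0% in 1 alone, and in dVenus- libraries the shares were 33.5% and 34.7% of 10173 genes. The differences of the 3 mice were only loosely related across genes, with Pearson correlations of 0.166 for mice 15 and 16, 0.0743 for mice 15 and 17 and 0.0391 for mice 16 and 17 over 7588 genes that share libraries and depth, given as a description.

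**Figure D2:**
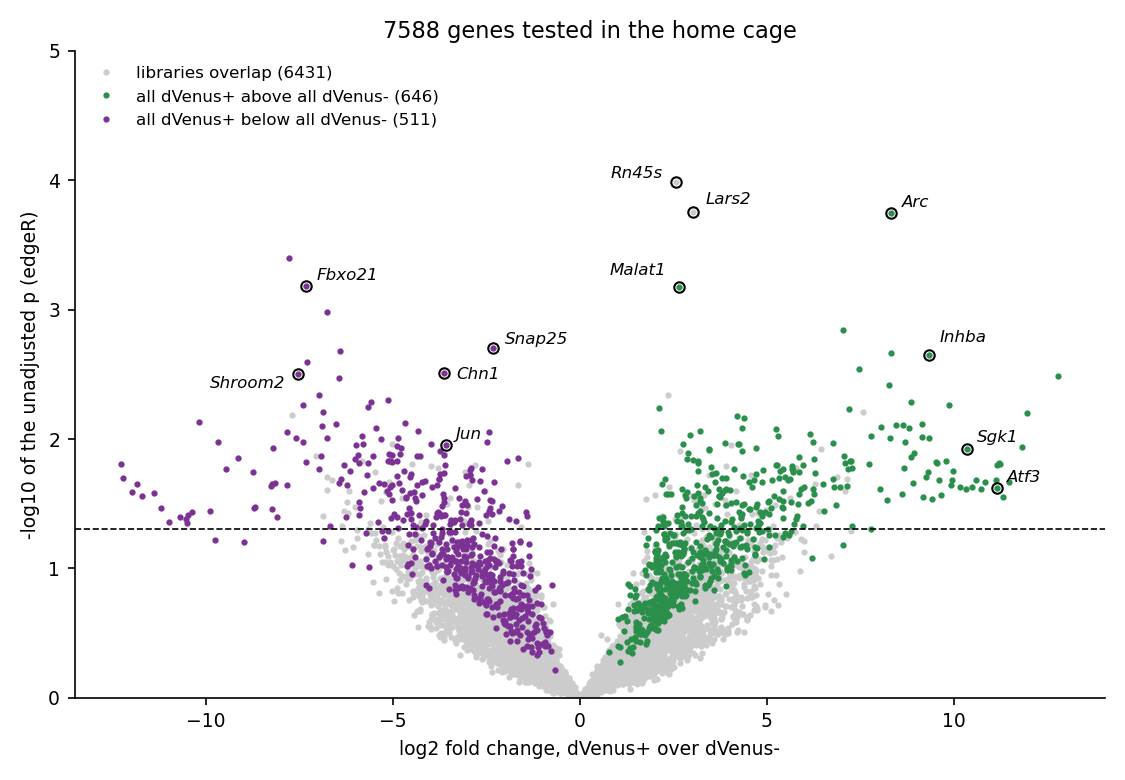
Log2 fold change of dVenus+ over dVenus- cells against the -log10 of the unadjusted edgeR p for the 7588 genes tested in HC. Green marks the 646 genes with all dVenus+ libraries above all dVenus- libraries, purple the 511 with all below, grey the rest, and the dashed line an unadjusted p of 0.05. Arc, Rn45s and Lars2 stand at the top, and no gene passed after adjustment.

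Next to Arc, the activity genes furthest apart in HC were Inhba, Sgk1 and Atf3, all near or at 0 in the dVenus- neighbours. Inhba (chr13:16004256-16031609), which encodes the beta A subunit of activin, had 139, 702 and 684 counts in dVenus+ and 0, 4 and 0 in dVenus- libraries, or 29.7, 242 and 73.2 against 0, 0.667 and 0 nCPM. Its log2 fold change was 9.34 (SE 2.32, unadjusted p = 0.00224, adjusted p = 0.677 by edgeR). Sgk1 (chr10:21882184-21999903), a kinase induced by glucocorticoids and by activity, had 100, 93 and 1148 counts against 0, 0 and 1, a ratio of the depth-scaled sums of 2627 with a 95% exact interval of 471 to 103850 that covers counting error only. Atf3 (chr1:191170296-191183333), a transcription factor of the CREB/ATF family that responds to activity and to stress, had 261, 109 and 38 counts in dVenus+ cells and 0 in all 3 dVenus- libraries, at least 102-fold higher against a floor of 3 counts per library. Homer2, a postsynaptic scaffold protein, stood at 7.27, 97.0 and 33.6 nCPM against 0.0638, 1.00 and 0 (log2 fold change 7.23, SE 2.52, unadjusted p = 0.0148). In these 4 genes every dVenus+ library exceeded every dVenus- library, although no adjusted p passed by edgeR; DESeq2 called all 4.

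The remaining genes that led the list on the higher side had few or no counts in the dVenus- pools. Eif2c2 (now Ago2), the Argonaute protein that cleaves targets of small RNAs, had 40.4, 507 and 57.2 nCPM against 1.66, 0.834 and 0 (log2 fold change 7.04, SE 1.75, unadjusted p = 0.00144). Yod1, a deubiquitinase, had 98.8, 114 and 58.3 nCPM against 0.638, 0 and 0. Ipo11, an importin that carries proteins into the nucleus, had 146, 177 and 17.5 nCPM and no count in the dVenus- libraries, at least 357-fold higher. The HC libraries of each kind did not overlap in these 3 genes, but the level of Eif2c2 was far higher in mouse 16 than in the others. Gcn1l1 (now Gcn1), which activates the translational stress kinase GCN2, had 7.70, 289 and 47.6 nCPM against 0, 1.33 and 0. Arih2, a ubiquitin ligase, had 132, 224 and 1.18 nCPM against 0, 0.5 and 0, and Snx21, a sorting nexin of endosomes, had 5.77, 271 and 61.7 against 0.128, 0 and 0.174. Peg10, an imprinted gene derived from a retrotransposon, was low throughout, at 12, 14 and 15 counts against 0 in each dVenus- library, at least 9.44-fold higher.

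Several of the leading genes with lower values in dVenus+ cells were close to undetected in the dVenus+ pools. Shroom2 (chrX:152609509-152770788), an actin-binding protein of the cell cortex, had 0, 1 and 11 counts in dVenus+ libraries against 993, 698 and 1666 in dVenus- libraries, or 0, 0.344 and 1.18 against 63.4, 116 and 145 nCPM. The log2 fold change was -7.54 (SE 2.02, unadjusted p = 0.00313, adjusted p = 0.677 by edgeR). The groups did not overlap. Fbxo21, the substrate receptor of a ubiquitin ligase, showed the same form, with 9, 3 and 1 counts against 2537, 1447 and 661 and a log2 fold change of -7.31 (SE 1.66, unadjusted p = 0.000655). Lrrn1, a neuronal membrane protein with leucine-rich repeats, had 34, 0 and 3 counts against 3185, 2385 and 1090.

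Snap25 and Chn1, also of this group, were lower but not absent. Snap25 (chr2:136713439-136782428), the SNARE protein of synaptic vesicle fusion, had 275, 458 and 979 nCPM in dVenus+ and 2012, 2374 and 3211 in dVenus- libraries, a log2 fold change of -2.32 (SE 0.58, unadjusted p = 0.00198). Chn1 (chr2:73610660-73775367), which encodes the Rac inhibitor alpha-chimaerin, had 36.3, 36.1 and 571 nCPM against 1201, 701 and 1520, a log2 fold change of -3.63 (SE 0.97, unadjusted p = 0.00308). Both were detected in all 6 libraries. Atp6v1g2, a neuronal subunit of the vacuolar proton pump, had 2.14, 20.0 and 329 nCPM against 462, 845 and 732; it and Chn1 were the 2 genes called when only the 2385 genes with at least 10 counts in all 6 libraries were tested by edgeR. Of the last genes in this group, Pitpnb, a phosphatidylinositol transfer protein, had 28, 5 and 0 counts against 1833, 2164 and 1038, and Trmt2a, a tRNA methyltransferase, 0, 0 and 15 against 655, 1658 and 1205. Fn3krp, a kinase that repairs glycated proteins, had 0, 0 and 55 counts against 611, 2003 and 2034, and Gnpat, an enzyme of plasmalogen synthesis, 1, 0 and 14 against 1381, 457 and 1184. In Pitpnb, Trmt2a, Fn3krp and Gnpat mouse 15 or mouse 17 alone carried most of the dVenus+ counts.

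**Figure D3:**
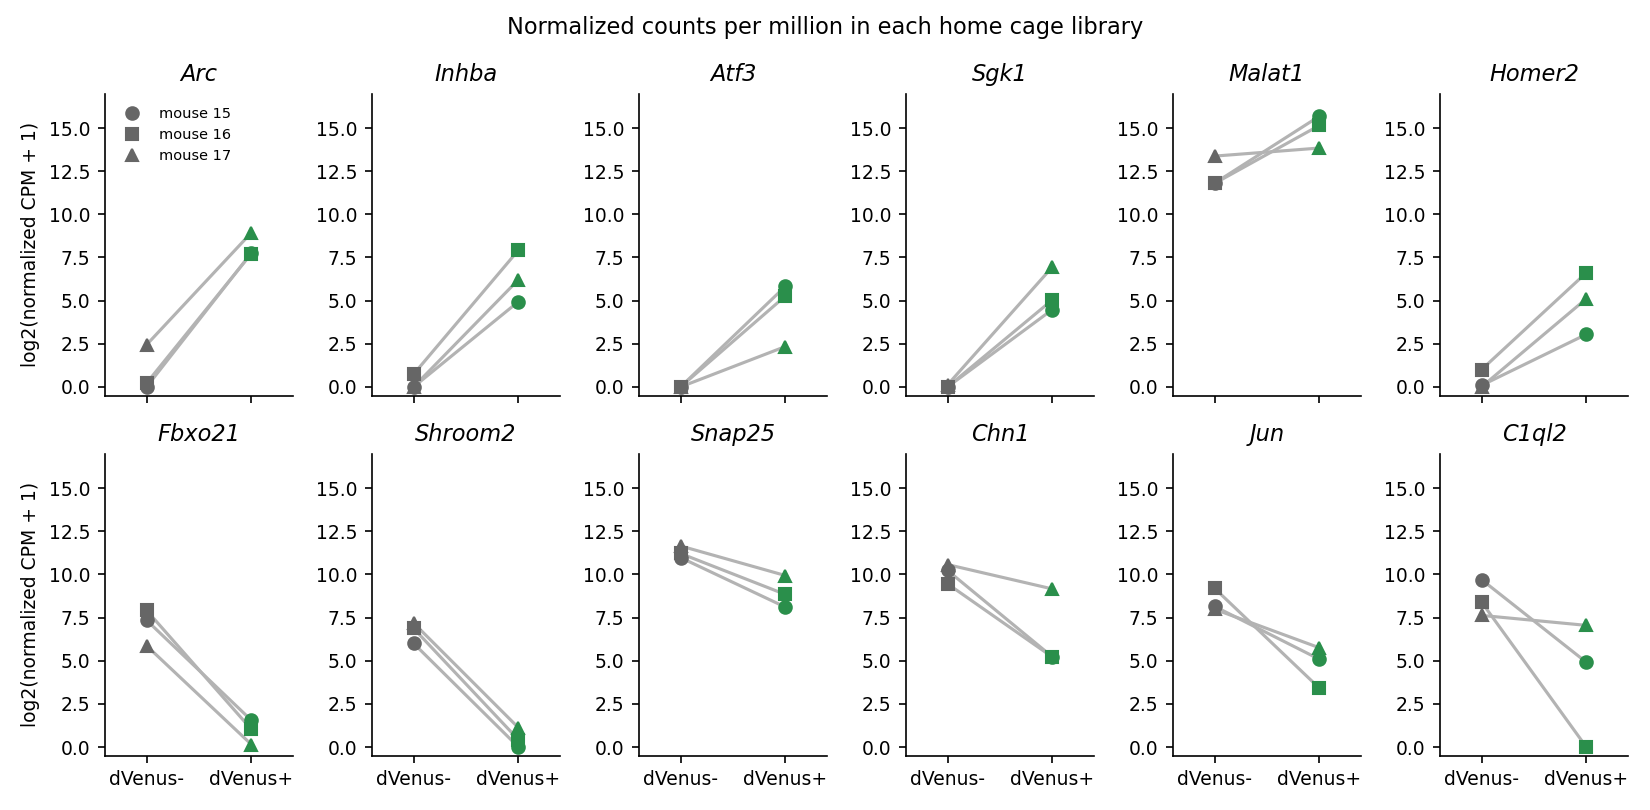
Levels of 12 genes as log2(nCPM + 1) in the dVenus- and dVenus+ libraries of each HC mouse, with 1 line per mouse. Arc, Inhba, Atf3, Sgk1, Malat1 and Homer2 lay higher in all 3 dVenus+ libraries than in any dVenus- library, and Fbxo21, Shroom2, Snap25, Chn1, Jun and C1ql2 lay lower.

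Presence in every pool of a kind and near absence from every pool of the other kind was uncommon. With at least 10 counts in all 3 libraries of a kind and at most 3 in each library of the other, 59 genes (0.778%) were on in dVenus+ cells, 35 of them at 0 in all dVenus- libraries, and 35 genes (0.461%) were on in dVenus- cells, 15 of them at 0 in all dVenus+ libraries. The strongest of the former by their lowest library were Acadsb, a dehydrogenase of branched-chain acyl-CoA, Dnajc21, a cochaperone of ribosome assembly, Tjp1, the junction scaffold ZO-1, Terf2, which protects telomeres, and Sgk1. Acadsb had 153, 88 and 918 counts, Dnajc21 101, 220 and 308, and Tjp1 150, 233 and 176, all against 0, which made them at least 169-fold, 137-fold and 138-fold higher. The strongest of the latter were Thumpd3, Ercc1, Commd10, Lmo3 and Pigs. Lmo3, a LIM-domain regulator of transcription, had 934, 186 and 1070 counts in dVenus- cells and 0 in each dVenus+ library, at least 92.1-fold lower, and Ercc1, a subunit of a DNA repair nuclease, had 598, 359 and 1300 counts against 0, 2 and 0. In pools of 10 cells, fewer cells that hold a transcript and less of it per cell cannot be told apart.

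Immediate early genes other than Arc were not higher together. Of the 41 primary response genes listed, 16 passed the count filter, and 9 of the 41, among them Npas4, Nr4a1, Egr2 and Egr4, were at 0 in all 6 libraries. None was called by edgeR (DESeq2 called Arc); 1 had an unadjusted p under 0.05 on the higher side (Arc) and 2 on the lower side, 1 lay wholly higher (Arc) and 3 wholly lower, beside 8.51% and 6.73% of all genes, and the median log2 fold change was 0.19 beside 0.02 over all 7588 genes. Jun, a subunit of the AP-1 transcription factor, had 32.9, 9.64 and 52.9 nCPM against 283, 587 and 252 (log2 fold change -3.58, SE 1.18, unadjusted p = 0.0111). Egr3, an early growth response factor, had 1, 0 and 1 counts against 286, 18 and 50, a ratio of 0.0111 with a counting interval of 0.00134 to 0.0403. Homer1, the scaffold whose short form is an immediate early gene, had 12.8, 25.5 and 3.64 nCPM against 41.0, 47.2 and 139 (unadjusted p = 0.172). All 3 lay lower in every dVenus+ pool. Fos, the other AP-1 subunit and the usual marker of recent firing, did not reach the count filter, with 0.214, 12.4 and 0.214 nCPM against 0, 4.67 and 0.348, and Egr1 overlapped between the kinds, with 8.77, 43.0 and 78.1 against 0, 1.33 and 78.1 nCPM.

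More delayed genes had positive than negative fitted values. Of 42 listed, 25 were tested, 19 of these had a positive and 6 a negative fitted log2 fold change, and the median was 1.10. The list was chosen with earlier results of these data known, so this lean is a description only. None of the 25 was called by edgeR. Of the 25, 3 (Inhba, Sgk1 and Atf3) had an unadjusted p under 0.05 and lay wholly higher, and none did so on the lower side. These 3 passed the count filter through their dVenus+ libraries alone. DESeq2 called these 3 and the receptor gene Gpr3, named here after its values were seen. Over all genes, 3.8% had an unadjusted p under 0.05 on the higher and 3.22% on the lower side, and 8.51% lay wholly higher and 6.73% wholly lower. Bdnf, the neurotrophin, was higher in dVenus+ cells of each mouse but overlapped across mice, with 199, 140 and 315 nCPM against 69.4, 3.67 and 281 (log2 fold change 1.99, unadjusted p = 0.155). Sorcs3, a sorting receptor of the postsynaptic density, had 292, 1.38 and 205 nCPM against 0.128, 0.334 and 60.4. Penk, the enkephalin precursor, depended on the mouse, with 307, 95.0 and 6.42 nCPM against 40.1, 0 and 362, and its log2 fold change of 2.32 became -1.32 without mouse 16 and -0.32 without mouse 15. Nptx2, a pentraxin that gathers AMPA receptors, had 31.6, 0 and 55.2 nCPM against 0, 0 and 33.4, and Acan, the core proteoglycan of perineuronal nets, had 21.0, 0 and 17.8 against 0 in each dVenus- library, at least 40.6-fold higher on the mean. For Nptx2 and Acan the dVenus+ library of mouse 16 held no count. Dusp14, a phosphatase of MAP kinases, ran the other way in mice 15 and 16 only, with 3.63, 3.10 and 17.0 nCPM against 36.9, 164 and 0. Blnk, a B cell linker protein that is on no list, had the form of Acan. It stood at 189, 0 and 88.7 nCPM against 0 in each dVenus- library, at least 291-fold higher on the mean.

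Genes of the signalling routes between calcium entry and transcription were mixed. Of 40 tested genes of the CREB family, its coactivators and cAMP signalling, 1 had an unadjusted p under 0.05 on each side, 4 lay wholly lower and none wholly higher, and the median was -0.22. That share is near the 6.73% of all genes that lay wholly lower, and the shares at an unadjusted p under 0.05 are below the 3.8% higher and 3.22% lower of all genes. The 4 were Crebbp, the CREB-binding coactivator, the adenylyl cyclases Adcy1 and Adcy8, and the anchoring protein Akap7; Crebbp had 40.2, 10.7 and 10.4 nCPM against 145, 65.9 and 64.6 (log2 fold change -2.35, unadjusted p = 0.112). Akap5, which anchors protein kinase A and calcineurin at synapses, had 670, 2088 and 469 nCPM against 101, 947 and 165 (log2 fold change 1.78, unadjusted p = 0.0291), and Pkia, an inhibitor of protein kinase A, had 1.71, 17.5 and 70.7 against 336, 64.5 and 653 (-3.79, unadjusted p = 0.0168). Each of these differences had the same sign in the 3 mice. Creb1 itself had 57.9, 13.8 and 0.963 nCPM against 0.893, 307 and 0.609, with mouse 16 opposed to the other mice. The calmodulin and calcium kinase list had a median of -1.002 over 24 tested genes, with 1 at an unadjusted p under 0.05 on the higher and 3 on the lower side, and 2 wholly higher and 6 wholly lower, beside 3.8%, 3.22%, 8.51% and 6.73% of all genes in the same order. Calm2, which encodes calmodulin and whose reads can be shared with its near copies, had 449, 910 and 2593 nCPM against 2748, 3064 and 3814 (-1.64, unadjusted p = 0.014). Ppp3r1, the regulatory subunit of calcineurin, had 64.1, 165 and 443 against 865, 1192 and 541 (-2.35, unadjusted p = 0.0301), and Camk2g, a calcium/calmodulin kinase, -3.20 (unadjusted p = 0.0416). The other isoforms did not share a direction: Camk2b lay wholly lower, at 236, 220 and 477 nCPM against 711, 537 and 984 (-1.31, unadjusted p = 0.1), and Camk2d wholly higher, at 6.84, 159 and 20.0 against 0.510, 2.83 and 5.65 (3.66, unadjusted p = 0.0703). Nfat5, an osmotic stress factor of the NFAT family, went against these at 3.24 (unadjusted p = 0.035).

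Genes of the amyloid precursor family and its processing, and of the endocytic and other proteins that work with Arc, were listed together, and the median log2 fold change of the 24 tested was -0.70. Psenen, a subunit of gamma secretase, had 3, 0 and 5 counts in dVenus+ against 415, 343 and 484 in dVenus- libraries (log2 fold change -6.38, unadjusted p = 0.0205). Aplp2, a relative of the amyloid precursor protein, had 75.0, 12.4 and 126 nCPM against 327, 309 and 617 (-2.90, unadjusted p = 0.0169). Other members that lay wholly lower belong to clathrin-mediated endocytosis, the route by which Arc removes AMPA receptors: Sh3gl2 (endophilin A1) at 69.7, 125 and 53.5 nCPM against 291, 320 and 229 (-1.84, unadjusted p = 0.0884), the AP2 adaptor subunits Ap2a1 and Ap2m1, and Picalm. Ap2a1 had 17.7, 18.2 and 4.60 nCPM against 52.3, 99.2 and 55.4 (-2.50, unadjusted p = 0.127). Dnm1, the neuronal dynamin of the same route, lay wholly higher, at 203, 309 and 260 nCPM against 75.6, 134 and 131 (1.20, unadjusted p = 0.232), as did Cnih2, an auxiliary subunit of AMPA receptors. The genes of this route thus did not share a direction.

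Synaptic and channel genes with differences ran in both directions. For glutamate receptors and their scaffolds 1 of 26 tested genes had an unadjusted p under 0.05, Homer2, and the median was -0.37. The list of GABA-A receptor genes also held the GABA-B receptor genes Gabbr1 and Gabbr2 and the scaffold gene Gphn. Of its 14 tested genes 3 were at an unadjusted p under 0.05 on the higher and 1 on the lower side, beside 3.8% and 3.22% of all genes. On this list 3 lay wholly higher and 2 wholly lower, beside 8.51% and 6.73%. Gabrb2, a beta subunit of the GABA-A receptor, had 598, 285 and 193 nCPM against 138, 28.8 and 75.2 (log2 fold change 2.24, unadjusted p = 0.0452), while Gabra2, an alpha subunit, had 27.6, 2.75 and 14.7 against 186, 73.2 and 210 (-3.62, unadjusted p = 0.0183). The alpha subunits Gabra3 and Gabra5 were low but lay wholly higher, with 7.27, 4.82 and 3.74 against 0.0638, 2.50 and 0.435 nCPM for Gabra3 and 8.12, 32.7 and 1.71 against 0.128, 0 and 0.0870 for Gabra5. None of 27 potassium channel genes reached an unadjusted p under 0.05 and 1 lay wholly lower, and the potassium channel Kcnq3 missed the filter with 0, 79 and 53 counts against 0 in each. Of 22 sodium, calcium and HCN channel genes 1 did so, Scn2b, an auxiliary sodium channel subunit, with 43.8, 27.2 and 68.4 nCPM against 383, 429 and 228 (-2.93, unadjusted p = 0.0191). Among 34 genes of synaptic vesicles and release, Snap25 and Syn1 were lower, Syn1, a vesicle phosphoprotein, at 49.2, 21.3 and 154 nCPM against 329, 608 and 238 (-2.68, unadjusted p = 0.0444), and Slc17a6, the vesicular glutamate transporter 2, was higher at 63.5, 187 and 41.1 against 0.957, 7.84 and 2.96 (4.73, unadjusted p = 0.0117). Rab3a and Syt1, the vesicle GTPase and the calcium sensor of release, lay wholly lower too, with log2 fold changes of -1.57 and -0.79 (unadjusted p = 0.0964 and 0.312). Rims1, a scaffold of the active zone, lay wholly higher, at 53.7, 40.6 and 88.3 nCPM against 30.3, 0 and 6.35 (3.23, unadjusted p = 0.117). So did Ppfia3, a liprin of the same zone (1.52, unadjusted p = 0.281), which made 3 wholly higher and 4 wholly lower of the 34. The counts on each list of this paragraph stand beside 8.51% of all genes wholly higher and 6.73% wholly lower. At an unadjusted p under 0.05 the shares of all genes were 3.8% and 3.22%. Slc17a6 is the transporter of other glutamatergic neurons more than of mature granule cells.

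Of the RNAs that stay in the nucleus, Malat1 stood out. Malat1 (chr19:5795690-5802672), an abundant long noncoding RNA of nuclear speckles, had 52677, 36385 and 14667 nCPM in dVenus+ and 3571, 3538 and 10608 in dVenus- libraries, with a log2 fold change of 2.66 (SE 0.57, unadjusted p = 0.000674, adjusted p = 0.677 by edgeR). Kcnq1ot1, an antisense RNA of the imprinted Kcnq1 locus that was named after its values were seen, had 2066, 3428 and 730 nCPM against 325, 639 and 305 (2.12, unadjusted p = 0.00578), and reads of this locus cannot be assigned to a strand. In nCPM, no dVenus- library reached the lowest dVenus+ library for either RNA. As a share of counts, Malat1 was higher in dVenus+ cells of mice 15, 16 and 17 by 3.47, 1.27 and 0.0593 percentage points. These shares overlapped between the kinds, since the dVenus+ library of mouse 16 lay below the dVenus- library of mouse 17. The 5 tested nuclear RNAs of the list, which includes Malat1 and not Kcnq1ot1, had a median of 1.71. Of these 5 RNAs only Malat1 had an unadjusted p under 0.05 or lay wholly higher in nCPM. Snhg11, the host of small nucleolar RNAs, had a log2 fold change of 1.71 (unadjusted p = 0.346) that became -0.22 without mouse 16. Of 15 heat shock and stress genes tested, Bag3, a cochaperone of selective autophagy, had 65, 419 and 51 counts against 0 in each (at least 172-fold higher), Ddit4, an inhibitor of mTORC1, had 1, 3 and 0 counts against 106, 608 and 135 (ratio 0.00923, counting interval 0.00251 to 0.0237), and the median was 0.29.

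The cell type markers did not all follow the label of granule cell to the same degree in the 2 kinds. Summed granule cell markers were 478.9 to 1433.2 nCPM in dVenus+ and 1612 to 3201.4 in dVenus- libraries, without overlap, and 15 of the 16 tested had a negative fitted log2 fold change (median -1.28), although 1 had an unadjusted p under 0.05. That gene, C1ql2, a secreted synaptic organizer of mossy fibres, had 29.1, 0 and 131 nCPM against 832, 337 and 197 (log2 fold change -4.23, unadjusted p = 0.0271). Prox1, the transcription factor that fixes granule cell identity, was detected in all 6 libraries, at 21.8, 14.1 and 3.10 nCPM against 102, 18.3 and 77.2 (-2.40, unadjusted p = 0.186). On the log2(CPM + 1) scale the mean granule marker level differed by -1.70 ± 1.56 (lower in 3 of 3 mice, exact permutation p = 0.25). General markers of excitatory neurons also summed lower, to 1425 to 2479 against 4222.9 to 5321.4 nCPM, with Snap25 on this list.

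Markers of glia were detected in both kinds of pool. Their median log2 fold changes were 3.15 for microglia, 2.08 for oligodendrocytes and 1.33 for astrocytes, the last turning to -0.25 without mouse 15; over the alternatives the first ranged from 1.22 to 5.56 and that of oligodendrocytes from 0.76 to 3.51. On the log2(CPM + 1) scale the mean of each of these 3 lists was higher in dVenus+ cells of 2 of 3 mice (exact permutation p = 0.5 each). The microglial sum was lower in dVenus+ cells of mouse 17 (336.8 against 362.2 nCPM), and the oligodendrocyte sum was lower in mice 16 (1557.1 against 2315.8) and 17 (1063.9 against 1794.8). Microglial markers summed to 336.8 to 1082.1 nCPM in dVenus+ and 24.1 to 424.5 in dVenus- libraries. Of the 10 tested, 2 lay wholly higher, C1qb, a complement subunit (146, 245 and 68.5 against 0, 5.84 and 42.9 nCPM), and Siglech. Such counts stand here and below beside 8.51% of all genes wholly higher and 6.73% wholly lower. Astrocyte markers summed to 1646.9 to 1734.1 against 899 to 1509.4 nCPM; Slc1a2, the glial glutamate transporter, had 651, 902 and 382 against 226, 135 and 77.5 (log2 fold change 2.19, unadjusted p = 0.0222), and 3 of 12 lay wholly higher, with Sox9 among them. Oligodendrocyte markers overlapped in sum, 766.7 to 1557.1 against 193 to 2315.8 nCPM. Of the 8 tested, 4 lay wholly higher and none wholly lower. At an unadjusted p under 0.05 were 3 on the higher and 1 on the lower side, beside 3.8% and 3.22% of all genes. Cldn11, the claudin of myelin, had 43.4, 21.7 and 29.2 against 0, 0.5 and 3.57 (4.97, unadjusted p = 0.0364). Mbp, myelin basic protein, was lower in each mouse, with 110, 417 and 439 against 171, 1838 and 1601 (-1.56, unadjusted p = 0.0479). Interneuron sums overlapped (255.9 to 361.3 against 123.4 to 346.3 nCPM) with Vip, Dlx2 and Htr3a at 0 in all 6 libraries, and precursor (7.6 to 14.1 against 0 to 10.0) and endothelial sums (2.7 to 41.7 against 0 to 2.7) were small, with Cspg4, Gpr17, Pecam1 and Kcnj8 at 0. Sums of CA and mossy cell markers overlapped (58.8 to 224 against 94.8 to 420.9 nCPM, Iyd and Drd2 at 0), as did those of immature granule cell markers (309.7 to 580.9 against 308.3 to 827.8), in which Eomes, Calb2 and Dcx lay wholly higher, Dcx at 17, 3 and 19 counts against 10, 2 and 10. The median log2 fold change was 1.96 for the 9 tested CA and mossy cell markers and 1.27 for the 6 tested interneuron markers. It was 0.19 for the 7 tested immature granule cell markers. On the log2(CPM + 1) scale each of these lists had a higher mean in dVenus+ cells of 2 of 3 mice (exact permutation p = 0.75, 0.5 and 0.5). The part of all these markers in the differences above was not tested.

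**Figure D4:**
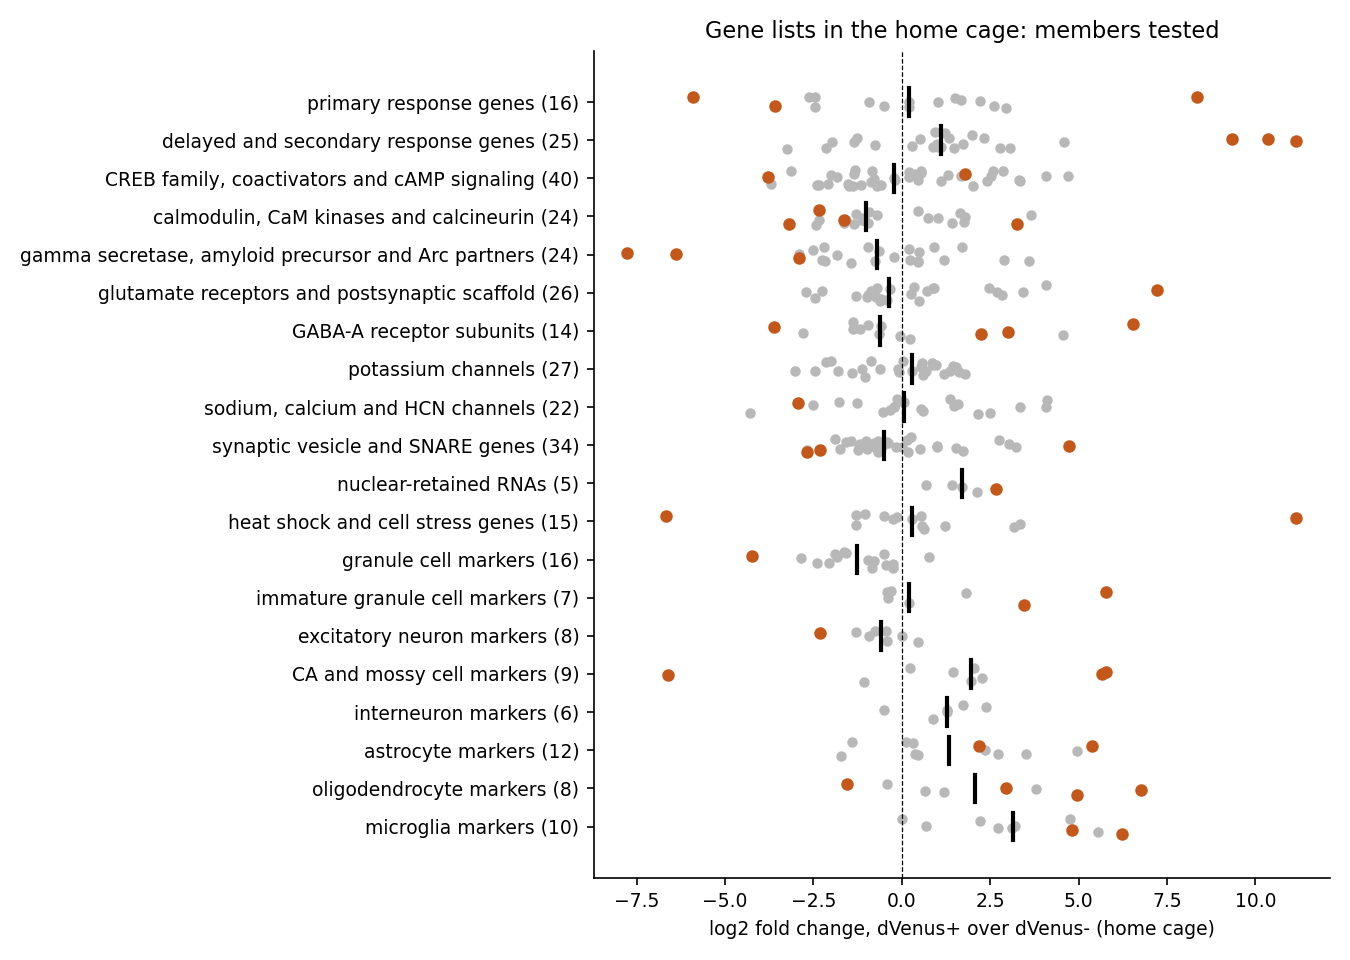
Log2 fold change of dVenus+ over dVenus- cells in HC for each tested gene of the lists with at least 5 tested genes, with the median as a black bar and genes at an unadjusted edgeR p under 0.05 in orange. The granule cell list has its median at -1.28 and the delayed genes at 1.10, beside 0.02 over all genes. In both lists genes lie on either side of 0. The lists were chosen with earlier results of these data known.

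The NS and FC mice share no library with the HC mice, and they show how the genes that led in HC behaved in animals not used to choose them. Of the 465 genes with an unadjusted p under 0.05 in HC that were also tested in NS, 344 (74.0%) had the same sign there, beside 62.1% of all 6793 genes tested in both; in FC the figures were 358 of 481 (74.4%) beside 59.0% of 7244. These shares are descriptions, since Rn45s was higher in dVenus+ cells of 3 of 4 NS and 9 of 12 FC mice as well, and its part in them was not tested. By edgeR in their own fits, 4 genes were called in NS (0.0489% of 8187) and 422 in FC (4.35% of 9709).

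Several HC genes had the same sign in both other histories, with sizes that differed for some. Arc had log2 fold changes of 8.75 in NS (adjusted p = 0.00184 by edgeR, 4 of 4 mice higher) and 8.75 in FC (adjusted p = 6.49e-07, 12 of 12). Inhba had 7.15 in NS (adjusted p = 0.201, 4 of 4) and 7.09 in FC (adjusted p = 1.45e-06, 12 of 12). Malat1 had 1.81 (adjusted p = 0.000116, 4 of 4) and 1.53 (adjusted p = 0.000553, 12 of 12), and Shroom2 had -6.91 (adjusted p = 0.0241, lower in 4 of 4) and -3.35 (adjusted p = 0.0182, lower in 11 of 12). Chn1 was lower in every mouse of the series, with -2.22 in NS (adjusted p = 0.257) and -1.64 in FC (adjusted p = 0.00128). Atf3 was higher in 3 of 4 NS and 11 of 12 FC mice. For these genes the HC values thus had the sign seen in the other mice, and the adjusted p, which also depends on the number of mice, differed.

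Other genes that led in HC had another sign in at least 1 of the other histories. Gcn1l1 was higher in 0 of 4 NS and 8 of 12 FC mice, with the smallest p of the test of the HC and NS difference (unadjusted p = 7.67e-06, adjusted p = 0.108 by edgeR). Trmt2a, at -7.29 in HC, had a log2 fold change of 3.58 in NS (difference with unadjusted p = 6.58e-05, adjusted p = 0.309), while in FC it had the sign of HC, at -2.18 (unadjusted p = 0.00668, lower in 10 of 12 mice). Eif2c2 had -1.37 in NS and 1.02 in FC, beside 7.04 in HC. Against FC the smallest p belonged to Tjp1, with a fitted -0.70 in FC and a difference at an unadjusted p of 3.71e-05 (adjusted p = 0.289). None of these differences passed over the table: edgeR called 0 of 14075 genes in either test (0.0% each), with 968 (6.88%) and 1304 (9.26%) at an unadjusted p under 0.05 against NS and FC, while DESeq2 gave 1453 and 1672 adjusted calls. Sample IDs of the HC and NS libraries share a prefix that the FC libraries lack, so history and the handling of the samples cannot be told apart for FC.

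For Penk, Bdnf and Sorcs3, HC gave values too spread to place beside those of FC. Penk had log2 fold changes of 2.32 in HC, 3.81 in NS and 6.47 in FC, and the HC minus FC difference was -4.02 (SE 2.19, unadjusted p = 0.0767, adjusted p = 0.563 by edgeR). Bdnf had 1.99, 3.48 and 2.49, with a difference of -0.34 (SE 1.05, unadjusted p = 0.752), and Sorcs3 had 4.60, 2.47 and 7.70, with a difference of -2.91 (SE 2.59, unadjusted p = 0.269). For Arc the difference was -0.24 (SE 2.12, unadjusted p = 0.912). Kcnq3, with counts in 2 of 3 dVenus+ and no dVenus- library in HC, was higher in dVenus+ cells of 0 of 12 FC mice.

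**Figure D5:**
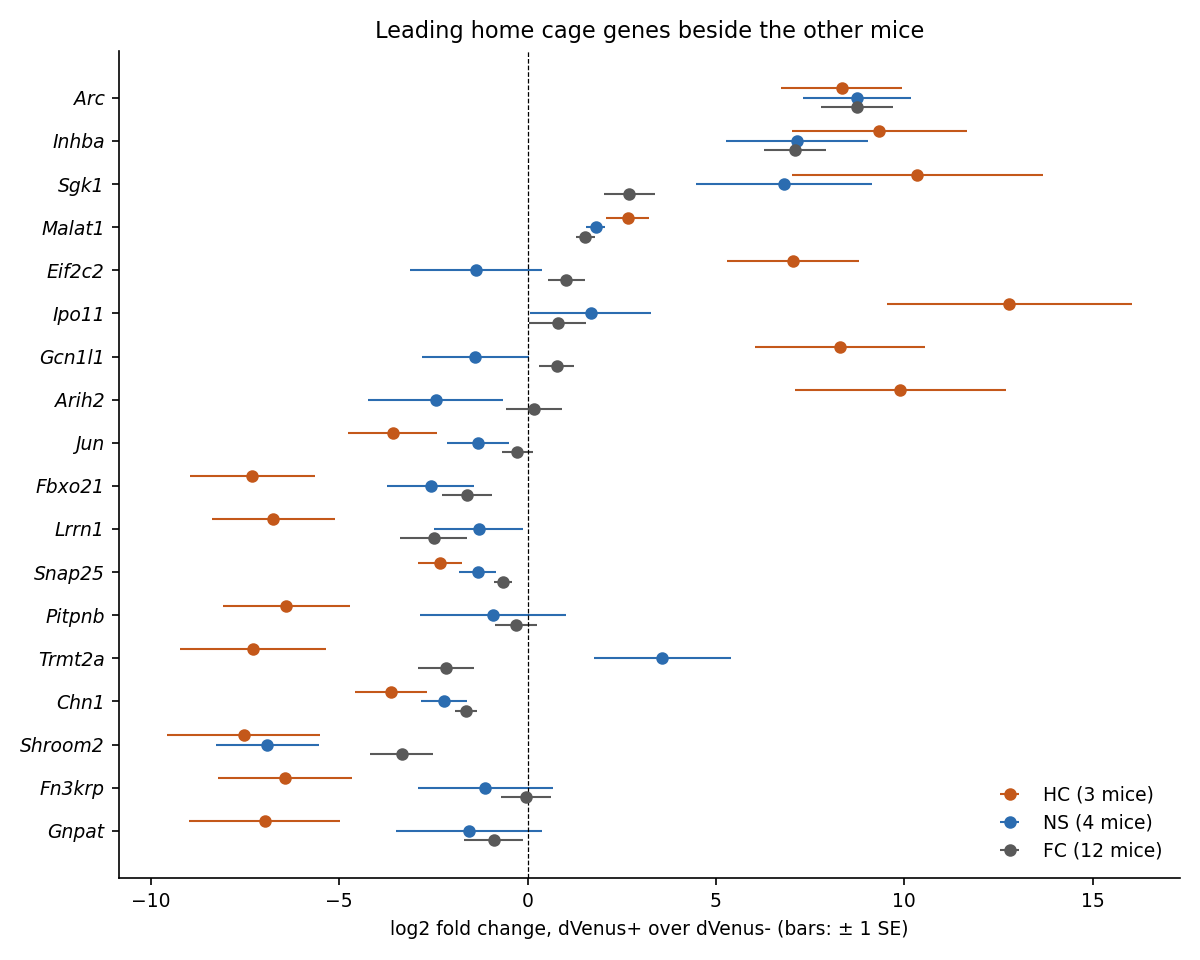
Log2 fold change of dVenus+ over dVenus- cells with its standard error for 18 genes in HC, NS and FC mice, each from its own edgeR fit. Arc, Inhba, Malat1, Chn1 and Shroom2 keep their sign in the 3 histories, while Gcn1l1 and Trmt2a lie far from 0 in HC and on the other side in NS.

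The DESeq2 calls, finally, depended on the mice included. Without mouse 15, 16 or 17 DESeq2 called 375, 502 and 396 genes, which held 45.1%, 29.6% and 37.3% of the 625 genes called with all 3 mice. In all 4 fits 55 genes were called, 27 higher and 28 lower, and in each of the 55 the dVenus+ and dVenus- libraries did not overlap. Arc, Inhba, Sgk1, Atf3, Homer2, Eif2c2, Ipo11 and Yod1 were among those higher, and Shroom2, Fbxo21, Lrrn1, Trmt2a and Lmo3 among those lower. Malat1, Chn1, Snap25 and Jun were not in this set of 55.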

How the data were processed

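Single-end reads of the Smart-seq2 libraries were aligned to mm10 by the authors with TopHat2 2.0.13, and uniquely aligned reads were counted per gene with HTSeq 0.6.0. The deposited values used here are these raw counts for 23420 genes, not normalized. The 5 entries that name no gene were left out of library sizes and tests; reads outside genes made up 17.1% to 44.9% of the HC libraries. The authors' table of the whole series holds equal values for the 11802 genes it lists and was not needed. Descriptions of HC libraries name other libraries than their sample IDs, so titles set the groups.

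Genes were tested where 3 or more of the 6 HC libraries held 10 counts or more, in edgeR 4.0.16 (R 4.3.3) with TMM scaling, the quasi-likelihood test and the mouse as a block, two-sided with Benjamini-Hochberg adjustment. Numbers pair libraries because both came from the same animal; deviations of same-mouse libraries correlated at 0.0228, 0.0599 and -0.0137. DESeq2 1.42.0, other scalings, filters, the fit without the block, all 38 libraries in 1 fit, each mouse left out, and a table without Rn45s and Lars2 and DESeq2 with a mouse left out (the last 2 chosen after seeing the data) were alternatives. Differences between histories were tested as interactions over 38 libraries. The scripts were tested on simulated data.

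The comparison, the gene lists and the markers were chosen with earlier results of these data known. Named genes were Arc, the 10 in each direction with the smallest p among those not overlapping, up to 5 present in each pool of only 1 kind, list members with an unadjusted p under 0.05 or no overlap, a panel of activity genes and the 5 leading genes of each interaction; Rn45s, Lars2, Kcnq1ot1 and Atp6v1g2 were named after their values were seen. Some genes that the rule names are not reported here. Positions are from the RefSeq annotation of GRCm38.p6, the build of mm10.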

Additional observations from a re-analysis of the deposited data

How the results depend on the processing

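edgeR called 0 genes in HC with either scaling, without a count filter, without the block, in 1 fit of all 38 libraries, without Rn45s and Lars2 and without each mouse; it called 2 with 10 counts required in all 6 libraries (of 2385 genes tested, Atp6v1g2 and Chn1) and 2 with its older quasi-likelihood method (Rn45s and Lars2), and DESeq2 called 625 (375, 502 and 396 without mouse 15, 16 or 17). Genes at an unadjusted p under 0.05 numbered 307 with the stricter filter, 1462 with DESeq2, 297 with the older method, 1702 in the fit of all libraries and 161 to 471 with a mouse left out, beside 532. Without the replicate block for the pairing by mouse they numbered 857. Genes without overlap numbered 425 under the stricter filter and 2562 to 3398 with a mouse left out, since 2 pairs overlap less often. Arc was past the threshold by DESeq2 only (9.99), and ranged from 7.46 to 11.59 with a mouse left out. The interactions gave 1453 calls against NS and 1672 against FC by DESeq2, and 32 and 8 with no replicate block. DESeq2 called 41 of 109 other named genes.

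Signs turned for Sorcs1 (1.72; -0.020 without the block, -1.39 to 9.20 with a mouse left out), Creb1 (0.54; -2.09 and -3.25 to 4.34), Penk (2.32; -1.32 to 4.58), Dusp14 (-2.14; -4.55 to 0.72) and Snhg11 (1.71; -0.22 to 3.97), and for the interaction of Arc with NS (-0.44; -1.26 to 3.09) and FC (-0.24; 2.79 without the block, -1.05 to 3.29); the cause was not tested. The other named genes kept their sign in every alternative in which they were tested. Leaving out Rn45s and Lars2 moved the median of all genes from 0.02 to 0.16. Over all alternatives this median ranged from -0.185 without the block to 0.443 without a count filter, where more genes were tested. The medians of the delayed genes (0.54 to 1.59), granule cell markers (-1.997 to -0.097), calmodulin list (-1.10 to -0.42) and amyloid precursor and Arc partner list (-0.87 to -0.36) kept their sign under all alternatives, while those of the primary response, glutamate, GABA-A, CREB, heat shock, astrocyte, immature granule cell, potassium and other channel lists changed sign under at least 1. The precision is limited by 3 pairs, by 10 cells per pool and by depth, at 5970884 or more counts per library and 2110348 or more without Rn45s.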
